A study of Cricetiscus sungorus with 216 samples.

Results

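The data are the 30 dorsomedial hypothalamus (DMH) libraries of male Djungarian hamsters that were kept in long photoperiod (LP) or had been moved to short photoperiod (SP) for 8, 12, 16 or 20 weeks. These were chosen by their labels from the 54 DMH libraries of a series that also holds the mediobasal hypothalamus, the paraventricular nucleus and the pituitary gland, and they form 5 groups of 6 hamsters, so that 24 SP libraries were set against 6 LP libraries. All hamsters were adult, with no transgene, mutation or injected agent given in the labels or methods for them, and the groups differed in photoperiod and its duration. Each library came from the punched DMH of 1 hamster and was read as full-length cDNA on the nanopore platform. The comparison asks which transcripts of this nucleus differ while the winter state is held, since SP 8 to 20 weeks covers the late induction and the maintenance phase of the circannual interval timer.

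The DMH lies above the arcuate nucleus and beside the lateral hypothalamus, and it is known for its part in feeding, thermogenesis, arousal and the daily timing of meals. In SP, Djungarian hamsters reduce food intake and body mass, grow a white pelage and enter torpor, and the DMH is one of the regions in which the response to short days and melatonin is read. Its neurons use GABA, glutamate and peptides such as RFamide-related peptide (Npvf) and cholecystokinin (Cck), and its neighbours make melanin-concentrating hormone (Pmch) and hypocretin (Hcrt).

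Depth set what could be seen. Total counts without Gm32262, a transcript that took 13.5% to 69.1% of the counts of a library, ranged from 106556 to 5884442, and the number of genes with a count above 0 ranged from 1072 to 16930. A further 12 genes that each held at least 1% of the counts took between 22.2% and 97.2% of a library. Fewer than 3000 genes were read in 6 libraries, 1 of LP (replicate 3), 1 of SP 8 weeks, 1 of SP 16 weeks and 3 of SP 20 weeks. LP libraries had a median of 11202 genes read and SP libraries a median of 8073, and the effective totals (counts scaled by the TMM factor) differed by -0.98 on the log2 scale, SP minus LP, which did not pass a two-sided exact permutation test (p = 0.300). Counts are given below as CPM (counts scaled to 1000000 of the effective total). The limit that a count of 0 allows covers counting error only.

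**Figure D1:**
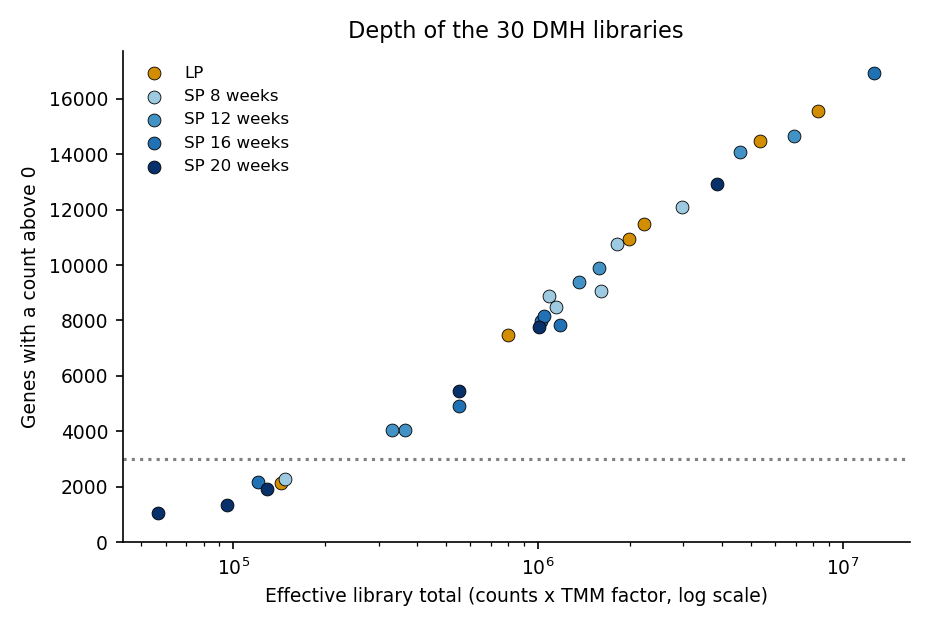
Genes with a count above 0 (vertical axis) against the effective library total (counts scaled by the TMM factor, horizontal log axis) for the 30 DMH libraries, coloured by group, with a dotted line at 3000 genes. The number of genes read climbs with the total, and 6 libraries, 3 of them from SP 20 weeks, lie under the line.

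The label of the tissue was checked against its markers. Neuronal genes were present, with 14 of 14 listed neuronal markers read in at least 15 of the 30 libraries, and Snap25, a synaptic vesicle fusion protein, was read in 6 of 6 LP and 22 of 24 SP libraries. Of the 7 genes listed as enriched in the DMH only Cck was read in enough libraries to test. Npvf, which marks a DMH cell group, was read in 1 LP and 2 SP libraries, Ppp1r17 in 1 and 9, Grp in 2 and 8, Lepr in 2 and 0 and Mc4r in 1 and 1, and Npffr2 was not analysed here. Pmch of the lateral hypothalamus was read in 6 LP and 20 SP libraries, and Tcf7l2, a marker of the thalamus, in 4 and 15, with a range in CPM of 0 to 566 in LP and of 0 to 858 in SP. The summed level of the 7 thalamic markers ranged from 20.8 to 931 CPM in LP and from 0 to 1249 CPM in SP. The part of these punch-to-punch differences in the results below was not tested. None of the 12 skeletal muscle, 7 choroid plexus or 7 pituitary gland markers was read in enough libraries to test.

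Of the 7904 genes read in at least 15 of the 30 libraries, 1 passed an FDR below 0.1 in the contrast of the 4 SP groups with LP (edgeR quasi-likelihood F-test with BH adjustment, 0.0127% of the genes tested). It was Snx19, a sorting nexin of endosomal and lysosomal membranes, and it was lower in SP. The next smallest FDR was 0.480. An unadjusted p below 0.05 was reached by 344 genes (4.35%), of which 300 were lower in SP (3.8% of the genes tested) and 44 higher (0.557%). Across all genes tested the median log2 fold change was -0.21, with 66.3% of them below 0, and it depended on the level of the gene: it was 0.22 over the 236 genes with a mean of 100 CPM or more. Without TMM the median of all genes was -0.81, so that the fold changes of lists are read below against the median of all genes. Counts of list members below 0 are read against the 66.3% of all genes.

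In LP, Snx19 was read at 6.57, 4.53, 0, 8.34, 7.21 and 8.75 CPM in replicates 1 to 6. In the 24 SP libraries its lowest, median and highest levels were 0, 0 and 7.20 CPM, and 10 of them had a count. Of these, 4 came from SP 12 weeks, at 5.68, 7.20, 0.735 and 4.197 CPM, whereas the highest level was 0.873 CPM at 8 weeks, 2.69 CPM at 16 weeks and 1.55 CPM at 20 weeks. All LP libraries other than replicate 3, which is the LP library with few genes read, lay above all SP libraries of 8, 16 and 20 weeks, and they overlapped with those of 12 weeks.

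The log2 fold change of Snx19 was -2.56 with an SE of 0.49 (95% interval -3.56 to -1.56, edgeR FDR = 0.0769). The mean log2 CPM of the 24 SP libraries was lower than that of the 6 LP libraries over all 593775 splits of the hamsters (two-sided exact permutation p = 0.000881, for a gene chosen by its small p in the same libraries). Read in 5 LP and 10 SP libraries, Snx19 also met the filter of 15 libraries only through LP, where it is high. The values rest on 136 counts in LP and 116 in SP, spread over 9 isoforms, the most frequent of which held 23.4% of them. A count of 0 was found in 14 SP libraries, and in 7 of these 3 counts would have come to less than the LP median of 6.89 CPM; in the other 7 the LP median itself lay under the limit that a count of 0 allows. Without the 6 libraries with few genes read the log2 fold change was -2.65 with an FDR of 0.978, and Snx19 was called in 5 of the 20 other settings in which it was tested.

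The mediobasal hypothalamus (MBH) of the same 30 hamsters was sequenced too. There Snx19 was read at 14.8 ± 9.83 CPM in LP (SD, n = 6) and at 15.2 ± 9.21 CPM in SP (SD, n = 24), with a log2 fold change of 0.08 and an SE of 0.41 (edgeR FDR = 1.00). Within hamsters, the DMH minus MBH difference in log2 CPM was -1.34 ± 1.72 in LP (SD, n = 6) and -3.25 ± 1.44 in SP (SD, n = 24). The lower value in SP, by 1.91 on the log2 scale, was past the threshold of a two-sided exact permutation test (p = 0.00847), although the gene had been chosen by its DMH values, which enter this difference. In the DMH of the hamsters outside the comparison, the median of Snx19 was 0.781 CPM at 4 weeks of SP, 1.26 CPM at 24 weeks, and 0 CPM at 28 and 32 weeks. The highest levels were 5.79, 7.27, 6.36 and 9.52 CPM in the same order, the last of which lay above each LP library. These CPM were scaled over all 54 DMH libraries, on which scale LP had a median of 6.41 and a highest level of 8.14 CPM.

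**Figure D2:**
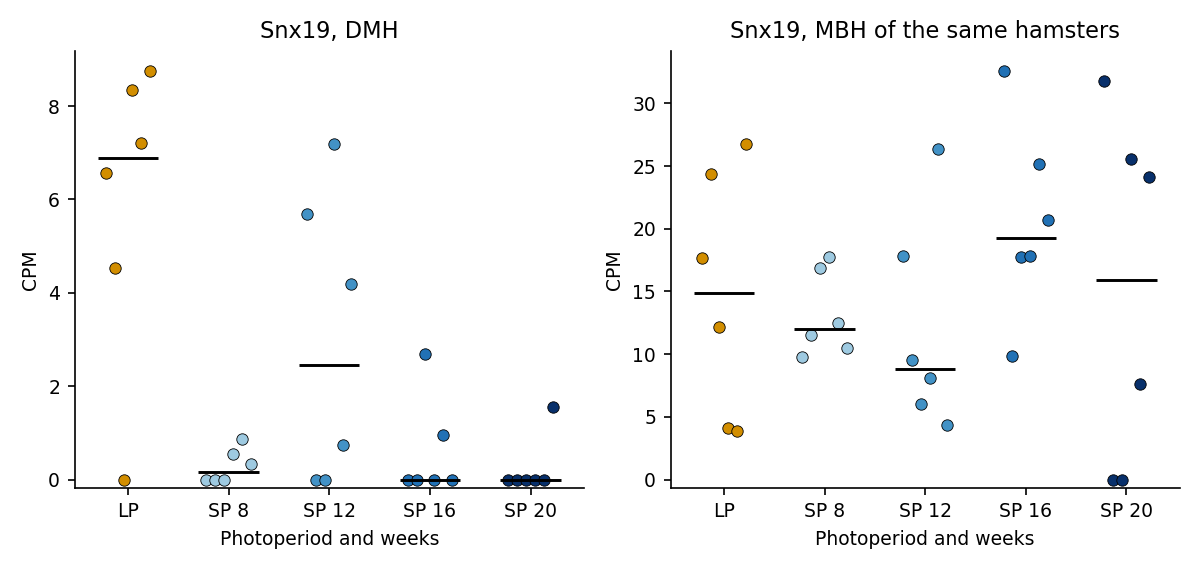
Snx19 in CPM for each hamster in the DMH (left) and in the MBH of the same hamsters (right), by photoperiod and weeks of SP, with a bar at the median of each group of 6. In the DMH 5 of 6 LP libraries lie at or above 4.53 CPM while 14 of 24 SP libraries are at 0, and in the MBH the groups overlap.

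The 9 genes next in order among those lower in SP all missed the threshold (FDR from 0.480 to 0.990), with log2 fold changes between -3.53 and -1.60. Flrt3, an adhesion protein of growing axons, was read at 0, 1.76 and 2.50 CPM in LP (lowest, median and highest) and at 0, 0 and 1.81 CPM in SP. Its log2 fold change was -1.81 (SE 0.42, FDR = 0.480). Cacna1c, the pore of an L-type calcium channel, had the most negative value of all genes tested, at -3.53 (SE 0.89, FDR = 0.622), with a mean of 30.5 CPM in LP and 5.19 CPM in SP. Cttnbp2, a cytoskeletal protein of dendritic spines, stood at -1.93 (SE 0.46), Exoc1, a subunit of the exocyst, at -2.34 (SE 0.59), and Pde2a, a phosphodiesterase of cyclic nucleotides, at -2.77 (SE 0.78). The splicing factor Rbm5, the methyltransferase Armt1, the ubiquitin ligase Rnf126 and the gene model Gm13728 lay between -2.55 and -1.60. Including Snx19, these 10 genes were read in 15 to 17 of the 30 libraries, at the edge of the filter of 15 libraries, while the median gene tested was read in 21. Snx19, Flrt3, Exoc1 and Cacna1c were each read in 5 LP and 10 SP libraries, so they met the filter only through LP, where they are high. The effect of this selection on their p was not tested.

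The 10 genes with the smallest p among those higher in SP also missed the threshold (FDR from 0.990 to 0.998), with log2 fold changes between 0.86 and 2.11. Gene models of the mouse annotation that carry a Gm number made up 5 of these 10, against 19.5% of all genes tested, and their reads can belong to near-identical copies of other genes. The best read of them was Gm8618, at 42.6, 49.5 and 82.5 CPM in LP (lowest, median and highest) and 33.8, 92.2 and 272 CPM in SP, with a log2 fold change of 0.86 (SE 0.35, FDR = 0.998). Gm13186 had a median of 6.98 CPM in LP and 16.7 CPM in SP and was read in 30 of 30 libraries. Among named genes, Samm50 and Parl, which assemble outer membrane proteins and cleave inner membrane proteins of mitochondria, stood at 1.24 (SE 0.48) and 1.19 (SE 0.47). The ubiquitin ligase Rchy1 stood at 1.37, the lysosomal glycoprotein Creg1 at 1.49 and the vesicle protein Vamp5 at 1.70, and LP and SP libraries overlapped for each of them. Vamp5 had a lower median in SP (0.218 CPM) than in LP (0.571 CPM). The two-sided exact permutation p was 0.555 for Vamp5, 0.155 for Rchy1, 0.153 for Samm50, 0.0541 for Creg1 and 0.0194 for Parl.

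**Figure D3:**
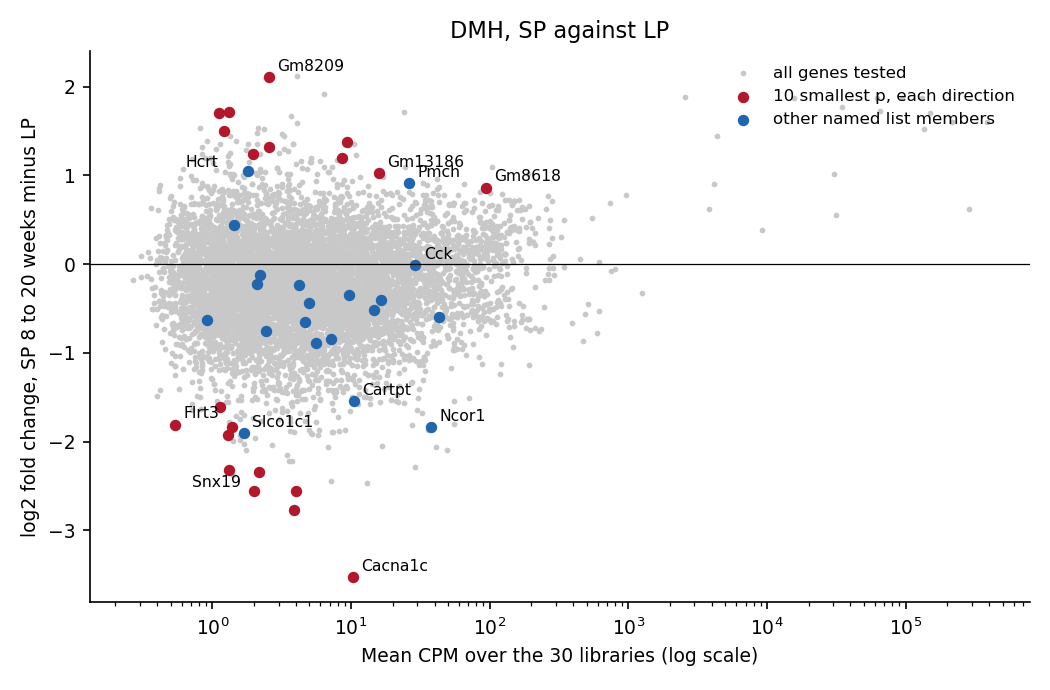
The log2 fold change of SP 8 to 20 weeks minus LP (vertical axis) against the mean CPM over the 30 libraries (horizontal log axis) for the 7904 genes tested, with the 10 genes of smallest p in each direction in red and the other named genes in blue. Snx19 at -2.56 is the gene past the threshold, and the red genes that are lower in SP lie at 10.3 CPM or less.

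Each SP week was also set against the same 6 LP libraries. No gene passed an FDR below 0.1 with edgeR at 8, 12, 16 or 20 weeks, where the unadjusted p was below 0.05 for 2.37%, 1.32%, 2.69% and 6.52% of the genes tested. At 8 weeks 143 of these genes were lower and 44 higher in SP (1.81% and 0.557% of the genes tested), at 12 weeks 52 and 52 (0.658% each), at 16 weeks 154 and 59 (1.95% and 0.746%) and at 20 weeks 424 and 91 (5.36% and 1.15%). DESeq2 called 0 genes at each week too, whereas limma-voom with sample quality weights called 2, 1, 0 and 2926. The smallest FDR was 0.216 at 8 weeks, again for Snx19, and 0.695 at 20 weeks. The median log2 fold change of all genes was -0.05 and -0.07 in the 8-week and 12-week groups, -0.20 in the 16-week group and -0.43 in the 20-week group, the one in which 3 of 6 libraries had few genes read. Without TMM these medians were -0.32, 0.24, -1.10 and -2.01, and limma-voom gave 0.19 at 20 weeks, so that their order and sign depend on the scaling. Among the 4 SP weeks no gene differed at an FDR below 0.1 (edgeR F-test, smallest FDR 0.828), with 2.92% of the genes tested at an unadjusted p below 0.05, and DESeq2 called 0.

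Of 25 peptide transcripts listed for the DMH and the lateral hypothalamus, 24 are in the table, 12 were tested and 0 passed the threshold. Of the 12, 9 were below 0 (66.3% of all genes), and 1 had an unadjusted p below 0.05, Cartpt. Their median log2 fold change was -0.29 beside -0.21 for all genes. This median was 0.19 without LP replicate 1, 0.10 without replicate 2 of every group, and -0.96 without replicate 6 of every group. The satiety peptide Cartpt was read at 0, 11 and 68.0 CPM in LP (lowest, median and highest) and at 0, 3.61 and 51.5 CPM in SP. Its log2 fold change was -1.54 (SE 0.62, FDR = 0.998), the exact permutation p was 0.0954, and LP and SP overlapped over most of their range. The group medians of Cartpt were 8.34, 3.61, 4.90 and 0.908 CPM at 8, 12, 16 and 20 weeks.

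Cck, which acts on feeding and marks DMH neurons, was read at 0, 18.6 and 52.3 CPM in LP and at 0, 15.3 and 174.2 CPM in SP. Its log2 fold change was -0.01 (-0.83 to 0.38 when a replicate number or an LP library was left out) with a 95% interval from -1.319 to 1.299, so that any level in SP from 0.401 to 2.46 times that in LP lay within it. Penk, the precursor of enkephalins, had medians of 12.3 CPM in LP and 3.16 CPM in SP and a log2 fold change of -0.84 (SE 0.60). Sst, which inhibits hormone release, had medians of 4.27 CPM in LP and 5.00 CPM in SP and a log2 fold change of -0.65 (SE 0.55). Tac1, Adcyap1 and Nucb2 stood at -0.35, -0.41 and -0.89, with intervals that all included 0.

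The orexigenic peptide Pmch had the opposite sign to most of this list, at 0.91 (SE 0.73, FDR = 0.998). It was read at 2.81, 14.2 and 23.7 CPM in LP and at 0, 13.95 and 160.8 CPM in SP, and the exact permutation p was 0.968. Its high libraries were spread over the SP weeks, with 160.8 CPM at 8 weeks, 58.4 and 54.5 CPM at 12 weeks and 120 and 118 CPM at 16 weeks. All libraries of 20 weeks lay at 15.9 CPM or less. Replicates 2, 3 and 4 of that week had a count of 0, where 3 counts would have come to 31.3, 23.3 and 52.7 CPM. A level of Pmch above 15.9 CPM is thus not excluded in them. Hcrt, the wake-promoting peptide of the same region, stood at 1.05 (SE 1.00), with a highest level of 2.50 CPM in LP and 15.04 CPM in SP. Both are listed here as peptides of neighbouring nuclei, but a bulk punch does not show which cells gave their reads. For Pmch, Hcrt and Gal the unadjusted p among the 4 SP weeks was 0.0409, 0.0266 and 0.0117, and none passed the FDR.

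The other 12 peptides of the list that are in the table were read in fewer than 15 libraries: Nts in 4 LP and 10 SP libraries, Pdyn in 3 and 9, Trh in 2 and 8, Npy in 2 and 5, and Vip in 3 and 5. For Qrfp and Nmu, 0 counts were found in all 30 libraries, which allows at most 0.160 CPM over the 6 LP libraries and 0.0650 CPM over the 24 SP libraries.

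**Figure D4:**
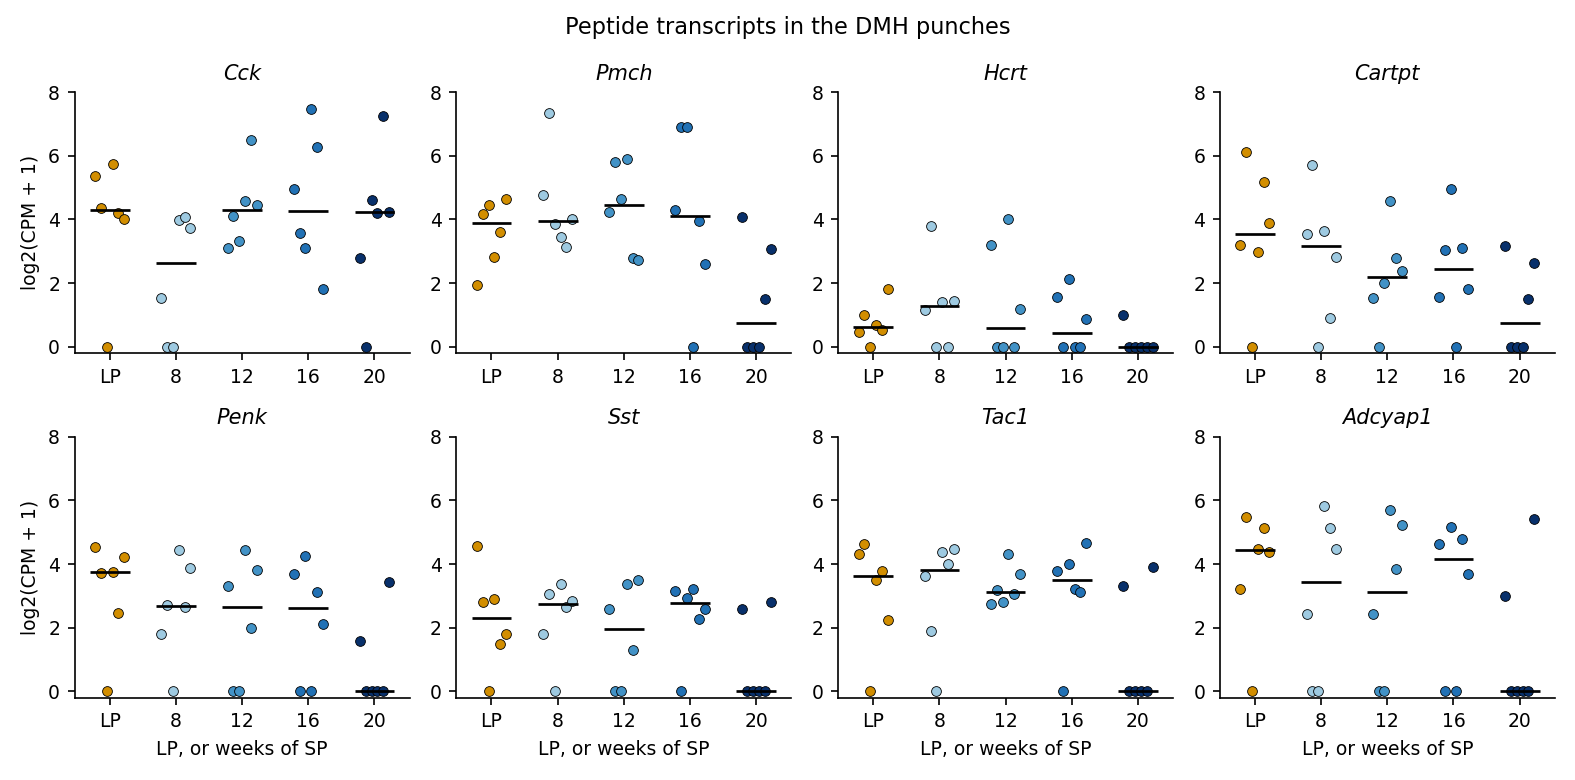
Levels of 8 peptide transcripts as log2(CPM + 1) for each DMH library, in LP and after 8, 12, 16 and 20 weeks of SP, with a bar at the median of each group of 6. LP and SP libraries overlap in all 8, and at 20 weeks the medians of Hcrt, Penk, Sst, Tac1 and Adcyap1 are at 0. In replicates 2, 3 and 4 of that week 3 counts come to 31.3, 23.3 and 52.7 CPM, so a 0 there does not exclude levels below these.

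Thyroid hormone enters the hypothalamus through transporters, is activated or degraded by deiodinases and acts on nuclear receptors that share corepressors and coactivators. Of 19 genes of this pathway 17 are in the table and 8 were tested, of which 0 passed the threshold. All 8 were below 0, beside 66.3% of all genes. Their median was -0.61 beside -0.21 for all genes, and 2 had an unadjusted p below 0.05. Slco1c1, a transporter of thyroxine at the blood-brain barrier, stood at -1.90 (SE 0.65, FDR = 0.990), with medians of 2.31 CPM in LP and 0.631 CPM in SP, and its exact permutation p was 0.281. The corepressor Ncor1 was read at 0, 108 and 131 CPM in LP (lowest, median and highest) and at 0, 2.27 and 110 CPM in SP. Its log2 fold change was -1.83 (SE 0.81, FDR = 0.998) with an exact permutation p of 0.0299, and its counts are split over 53 isoforms. Thra, the main nuclear receptor of thyroid hormone in the brain, had medians of 8.09 CPM in LP and 5.09 CPM in SP and stood at -0.44 (SE 0.48).

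Klf9, Rxra, Ncoa1 and Thrsp of the same pathway stood between -0.75 and -0.22. The enzyme that activates thyroid hormone, Dio2, was read in 2 LP and 5 SP libraries, the receptor Thrb in 3 and 5 and the thyroid hormone binding protein Crym in 2 and 6, so that no test was made. Dio3, which degrades thyroid hormone, was not analysed here. Retinoic acid signalling, which is also known for photoperiodic change in this species, had 5 of 17 genes tested, with a median of -0.14 (-0.56 to 0.14 when a replicate number or an LP library was left out) and 0 of 5 at an unadjusted p below 0.05.

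Transcripts of neurons and of oligodendrocytes had medians further below 0 than those of astrocytes and microglia, and none of their members passed the threshold. The 14 neuronal markers had a median log2 fold change of -0.76, with 12 of 14 below 0, 0 past the threshold and 2 at an unadjusted p below 0.05 in the direction of lower levels in SP. Snap25 was read at 29.99, 172.8 and 225.6 CPM in LP (lowest, median and highest) and at 0, 70.4 and 183 CPM in SP, with a log2 fold change of -1.13 (SE 0.44, FDR = 0.998). The neurofilament Nefm stood at -1.13 (SE 0.50). The 12 tested myelin and oligodendrocyte genes had a median of -0.79, 11 of 12 below 0, with the myelin glycoprotein Mag at -1.58 (SE 0.74) and Mbp, a main myelin protein, at -0.78. The median of 14 astrocyte genes was -0.31 and that of 9 microglial genes -0.30, closer to the -0.21 of all genes, and 0 of these 23 had an unadjusted p below 0.05. The 7 endothelial and mural genes and the 3 of tanycytes and ependyma had medians of -0.15 each, the 4 of the thalamus -0.28, and the 3 of neighbouring nuclei (Pmch, Hcrt and Pomc) 0.91. The median of the thalamic genes was 0.95 without LP replicate 4, and those of the endothelial and tanycyte lists were -0.84 and -0.85 without replicate 6 of every group. Without replicate 5 of every group the myelin median was -0.36 and the neuronal median -0.73. In that setting microglia stood at -0.31, astrocytes at -0.19 and all genes at -0.17, so that the distance of myelin from microglia depends on the libraries used. In a bulk sample, fewer cells of a type and less RNA per cell cannot be told apart.

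The summed level of the neuronal markers had a median of 1204 CPM in LP (range 666 to 1493) and of 586 CPM in SP (range 17.6 to 1454). The lowest SP value rests on 1 count, in a library of 20 weeks with an effective total of 56885. Median effective totals were 1374380, 1472216, 1033423 and 339845 at 8, 12, 16 and 20 weeks. The part of depth in the values by week was not tested. By week, the median log2 fold change of the neuronal list was -0.32, -0.28, -0.84 and -1.34 at 8, 12, 16 and 20 weeks beside -0.05, -0.07, -0.20 and -0.43 for all genes. Without the 6 libraries with few genes read it was -0.72, and that of the myelin list -0.75. Haemoglobin transcripts stood on the other side, with 4 of 4 tested above 0 and a median of 0.40, which turned to -0.28 without TMM. The summed level of the blood list ranged from 107 to 461 CPM in LP and from 87.8 to 750 CPM in SP.

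Genes of synaptic transmission had a median near that of the neuronal list, but the lists share Gad1, Gad2, Slc32a1 and Slc17a6 and are not independent. The 26 tested genes of GABA and glutamate transmission had a median of -0.63 beside -0.21 for all genes. Of the 26, 22 were below 0 (66.3% of all genes) and 0 were past the threshold. Gria2, an AMPA receptor subunit, stood at -2.06 (SE 0.77), with medians of 39.03 CPM in LP and 16.99 CPM in SP. The GABA receptor subunit Gabrg1 stood at 1.04 (SE 0.44), with medians of 1.301 CPM in LP and 2.95 CPM in SP. Both had an unadjusted p below 0.05, with FDR values of 0.998. The GABA synthesising enzymes Gad1 and Gad2 and the vesicular transporter Slc32a1 stood at -0.75, 0.35 and 0.20, and the glutamate transporter Slc17a6 at -0.91.

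Of 15 granins and prohormone processing genes, which load and cleave peptides in secretory granules, 11 were tested, all 11 were below 0 and the median was -0.53. Of all genes tested, 66.3% were below 0, with a median of -0.21. Pam, which amidates peptides, stood at -1.68 (SE 0.64, unadjusted p = 0.0132, edgeR FDR = 0.998), with medians of 66.6 CPM in LP and 15.3 CPM in SP. The granins Chgb, Scg3, Scg2 and Vgf stood at -0.74, -0.77, -0.35 and -0.23. Of 16 cold-inducible, chaperone and glucocorticoid-responsive genes tested, 14 were below 0 with a median of -0.50, beside the same values for all genes. The cold-inducible Rbm3 and Cirbp, which rise at low body temperature, stood at 0.23 and -0.04, and the chaperones Hsph1 and Dnajb1 at -1.43 (SE 0.50) and -1.23 (SE 0.48), with FDR values of 0.998.

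Circadian clock genes gave 13 tested of 23, with a median of -0.37 and 0 at an unadjusted p below 0.05. Without LP replicate 4 the median was 0.43 over the 11 members then tested, beside -0.16 for all genes. The nuclear receptors Rorb and Nr1d1 stood at -1.21 and -0.47, Clock at 0.53 and Dbp at -0.07, and Per1, Per2 and Cry1 were read in too few libraries to test. Only 3 of 21 immediate early genes were tested, with a median of -0.70 (-1.89 for the 1 member tested without replicate 6 of every group), since Fos was read in 2 LP and 3 SP libraries and Egr1 in 5 and 7. Of 37 receptors of peptides, amines and metabolic hormones 3 were tested. The leptin receptor Lepr was read in 2 LP and 0 SP libraries, the insulin receptor Insr in 1 and 7 and the melanocortin receptor Mc4r in 1 and 1. The 7 tested genes of insulin and IGF signalling had a median of -0.21 (-0.91 without replicate 6 of every group), and Igfbp5 stood at -0.93 (SE 0.45). For DNA methylation and histone deacetylation, 8 of 16 genes were tested with a median of -0.67. It was -0.81 to -0.24 when a replicate number or an LP library was left out. The maintenance methyltransferase Dnmt1 and the deacetylase Hdac3 stood at -1.52 (SE 0.67) and -0.93 (SE 0.43).

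Abundant housekeeping groups had the narrowest intervals. The 86 tested cytosolic ribosomal protein genes had a median of 0.22, with 17 below 0 and the highest at 0.77, and 1 of them, Rpl22, had an unadjusted p below 0.05. Without TMM their median was -0.40, which is still above the median of all genes in that setting. In the main fit the 236 genes with a mean of 100 CPM or more, whatever their function, also had a median of 0.22, with 32.6% of them below 0. A shift of the ribosomal list apart from that of well-read genes was not tested. The 78 tested nuclear-encoded genes of oxidative phosphorylation had a median of -0.08 (0.03 without replicate 2 of every group), with members ranging from -0.65 to 0.67, and 0 had an unadjusted p below 0.05. For 47 of the 86 and 39 of the 78 the 95% interval lay within a 2-fold change in either direction. The same was true of 12.3% of all genes tested and of 0 of the 12 peptides, while 82.9% of all genes and 7 of the 12 peptides had intervals within a 4-fold change.

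**Figure D5:**
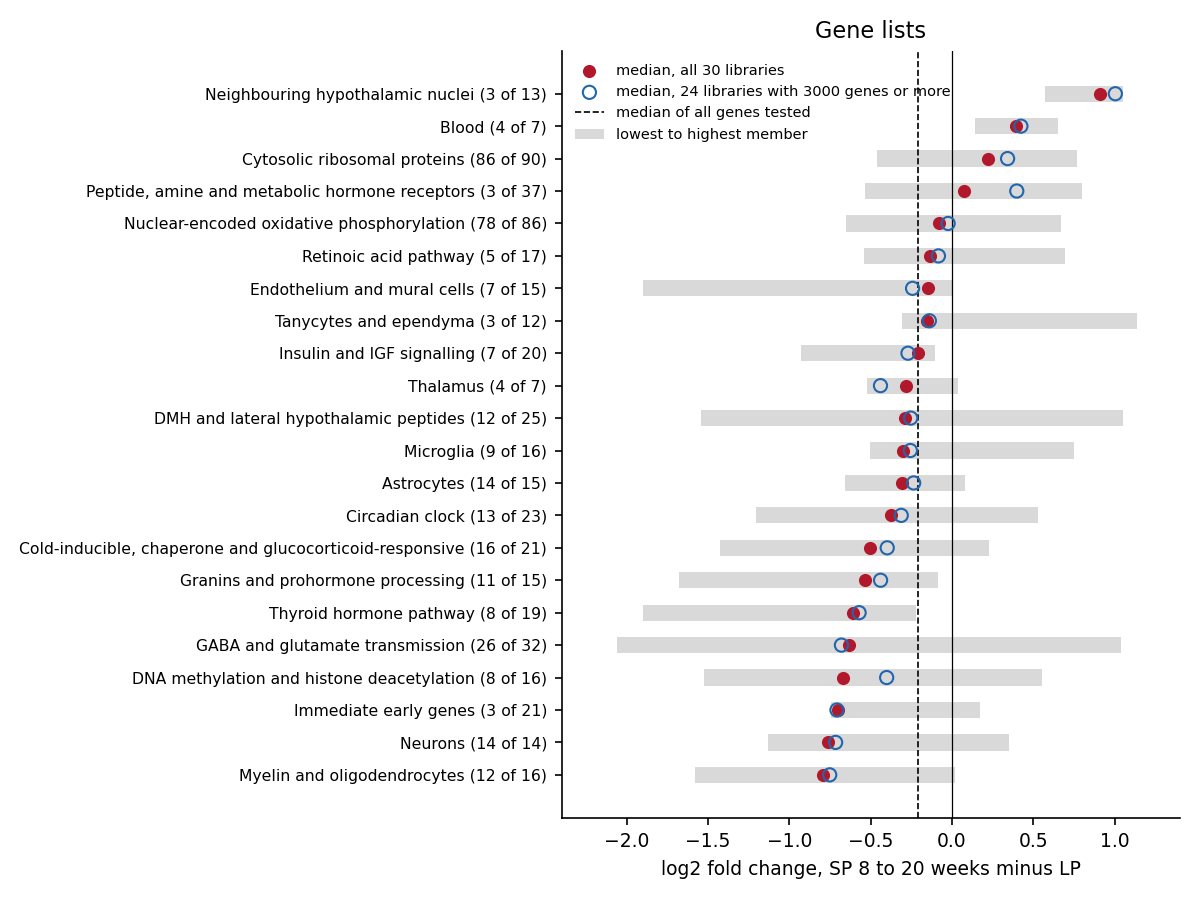
Median log2 fold change of SP 8 to 20 weeks minus LP for the gene lists with at least 3 genes tested (red, all 30 libraries; open blue, the 24 libraries with 3000 genes or more), with grey bars from the lowest to the highest member and a dashed line at the median of all genes. The numbers in brackets are genes tested of genes listed. Myelin and neuronal lists lie lowest at -0.79 and -0.76, and ribosomal proteins at 0.22.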

How the data were processed

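RNA of bilateral punches was sequenced by the authors as PCR-amplified cDNA on the nanopore platform, and reads were aligned with Minimap2 to the mouse genome GRCm39, so genes carry mouse symbols and reads that differ from the mouse sequence could be lost. The deposited values are expected counts, estimated per isoform by the authors with Salmon without normalization, after a filter on low counts; 98.5% of values above 0 in the DMH table were whole numbers (within 1e-06). How strand was handled is not stated in the labels or methods, so antisense and overlapping genes cannot be told apart. The authors' own comparisons were not used.

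Counts of the 89356 isoforms were summed over 21821 gene symbols and rounded. Gm32262 was left out of totals, and genes with a count in at least 15 of the 30 libraries were kept. A quasi-likelihood model (edgeR 4.0.16 run in its older, edgeR 3 form under R 4.3.3, TMM, 5 groups) tested by F-test the mean of the 4 SP groups minus LP, each SP week minus LP, and the 4 SP weeks among themselves, with a BH FDR below 0.1. SE is the fold change over the root of F, and 95% intervals use the t quantile. Exact permutation tests used log2 CPM with a prior count of 2, for 40 named genes, and are two-sided (numpy 2.4.6); their p is unadjusted. Named genes are those called, filled up to the 10 of smallest p in each direction, and the tested members of the peptide, DMH-enriched and thyroid hormone lists; Gria2, Pam and other list members were named after their values were seen. The comparison, its members and the lists were chosen with earlier results of these data known. Labels give no litter, run or batch. The hamsters of a group are separate animals. Alternatives used DESeq2 1.42.0 and limma 3.58.1 (voom). The edgeR step was tested on simulated data. Sequences were not used here. Some list members that entered the counts and medians are not reported by name here.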

Additional observations from a re-analysis of the deposited data

Results flagged for a closer look

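In groups of 6, single libraries that stand far from the nearest other library were looked for in 5 measures of depth and in the 16 genes whose values are shown, which made 105 groups, of which 16 were marked; chance marks about 1 in 20. LP replicate 3 stood apart in the share of Gm32262 (69.1%, next 37.2%) and was at 0 CPM for Snx19 (next 4.53), Cck (next 15), Ncor1 (next 60.0) and Thra (next 6.25); it is the LP library with few genes read. In LP replicate 3, 3 counts would have come to 20.8 CPM, which is above the next levels of Snx19, Cck and Thra. LP replicate 6 was high for Gm13186 (17.5 CPM, next 8.11) and low for Snap25 (29.99 CPM, next 110).

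SP 8 weeks replicate 3 had an effective total of 147656 (next 1088178) and 2290 genes read (next 8491). At SP 16 weeks, replicate 2 was at 0 CPM for Sst (next 3.83) and Tac1 (next 7.66), and replicate 4 at 0 CPM for Snap25 (next 23.6). There 3 counts would have come to 5.44 CPM in replicate 2 and 24.9 CPM in replicate 4. The next levels of Sst and Snap25 thus lay under the limit that a count of 0 allows. At SP 20 weeks, replicate 6 was the 1 library with a count of Snx19 (1.55 CPM), Flrt3 (0.258 CPM) and Ncor1 (54.1 CPM) while the others were at 0, and replicate 1 the 1 library with Hcrt (0.991 CPM). Replicate 6 had the largest effective total of that week (3879468, group median 339845). The values of Flrt3 and Hcrt were 1 count each.

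The SP minus LP difference of Snx19 differed between the DMH and the MBH of the same hamsters by -1.91 on the log2 scale (two-sided exact permutation p = 0.00847). The gene had been chosen by its DMH values.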

How the results depend on the processing

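The count of genes called in SP against LP, 1 in the form reported, was 0 with DESeq2 size factors, library totals without TMM, Gm32262 kept, the filter set over all DMH libraries, DESeq2, the edgeR 4 method, all DMH libraries in 9 groups, SP pooled as 1 group, an FDR below 0.05, libraries under 500000 counts left out, and 2 alternatives added after seeing the data (without the 6 libraries with few genes read, and without genes of 1% or more of the counts in the totals). It was 3 with filterByExpr (Relch and Tia1 beside Snx19), 6 with the highest isoform of each gene (Meg3, Cplx2, Ptprd, Aplp1, Camk2a and Mef2c, all lower in SP and without Snx19), 98 with limma-voom (35 higher and 63 lower) and 553 without a filter on low counts (544 lower). Leaving out a replicate number or 1 LP library gave 0 to 7 genes; the 7 came without replicate 3, which also gave 148 lower and 4 higher genes at 16 weeks, where the other leave-outs gave 0. The cause was not tested.

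Of the counts of 0 by week, limma-voom changed 8 weeks to 2, 12 weeks to 1, 20 weeks to 1173 lower and 1753 higher and the count among weeks to 866. The highest isoform gave 1 at 12 weeks and 1 among weeks, and no filter gave 1 at 20 weeks and 2 among weeks. Apart from these and the fit without replicate 3 at 16 weeks, the alternatives run left these at 0. Snx19 was lower in SP in all 20 alternatives in which it was tested (-3.14 to -1.56, FDR 0.0119 to 1.00) and called in 5 of them; in the others it was read in too few libraries. Its DMH minus MBH difference was -2.76 and -1.31 with prior counts of 0.5 and 5 (exact permutation p = 0.0105 and 0.0103). Snx19 was chosen by its DMH values in these libraries and met the filter only with its LP libraries. Neither its sign across the alternatives nor these p values are therefore separate support. For the 39 other named genes no alternative gave a call in the opposite direction.

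Replicate numbers mark different hamsters. The LP library correlated with the mean of the SP libraries of its number at r = 0.20, 0.46, 0.33 and 0.11 for replicates 1, 3, 4 and 5 and at -0.40 and -0.16 for replicates 2 and 6 (2290 genes), so that not every number deviated together and they were not taken as pairs. With the replicate block the count was 0 genes, and 0 at each week. The median 95% interval was 2.06-fold in either direction over all genes tested and 1.68-fold over the 236 genes with 100 CPM or more.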
